A study of Mus musculus with 6 samples.

Results

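Amino acid and neurotransmitter solute carriers are membrane proteins that move amino acids, taurine, creatine and amino acid transmitters across plasma, vesicle and lysosome membranes. The genes described here are those whose symbol places them in the carrier families Slc1, Slc3, Slc6, Slc7, Slc17, Slc18, Slc32, Slc36, Slc38 or Slc43 and whose normalised value was at least 10 in at least 3 of 6 libraries. The symbols matched 41 of the 14437 genes in the deposited table, all 41 passed the limit on the value, and 14076 genes were tested in all. Closest to that limit was Slc17a7, which reached 10 in exactly 3 libraries, from both groups. Of the 41 genes, 40 encode carriers or their partner chains. The remaining one, Slc7a6os, matched only through its name, which marks it as the opposite-strand neighbour of Slc7a6, and it lay at 252 ± 38.6 normalised reads in wild-type and 249 ± 14.4 in knock-out libraries (SD, n = 3).

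The study compared endothelial cells from the cerebellum of C57BL6 mice at postnatal day 9 by RNA-seq, with 3 libraries from wild-type mice and 3 from Ccm3 knock-out mice, 1 numbered mouse per library. The gene once called Ccm3 is now named Pdcd10, and its loss causes cerebral cavernous malformations; the comparison asks which transcripts differ between the genotypes. Cells were isolated with beads against CD45, a leukocyte marker, and CD31, an endothelial marker. The Cre driver or other means of the knock-out, the deleted exons and whether both groups share other alleles or treatments are unstated in the sources used here.

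Endothelial cells of brain capillaries are joined by tight junctions, so that amino acids reach the brain mainly through carriers in both membranes of these cells. Large neutral amino acids pass by exchange through Slc7a5 bound to the heavy chain Slc3a2, cationic amino acids pass through Slc7a1, and sodium-coupled carriers of the Slc1, Slc6 and Slc38 families move small neutral amino acids, glutamate, glutamine and taurine against their gradients. Inside cells, carriers of the lysosome release amino acids whose supply is read by the kinase complex mTORC1.

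Values are gene reads divided by the authors' size factor of each library, called normalised reads below, and folds give the knock-out level over the wild-type level, as fitted by limma to log2(value + 1). A gene is said to have risen or fallen only where its p-value, adjusted over all 14076 genes, was under 0.05. Recovered reads per library ran from 11075769 to 21142333. Pdcd10, the targeted gene, had 529, 522 and 689 normalised reads in wild-type libraries 1 to 3 and 230, 154 and 309 in knock-out libraries 1 to 3 (fold 0.39, adjusted p = 0.0162). Endothelial markers, all 12 of them in the table, summed to between 145211 and 163898 in wild-type and between 128892 and 157066 in knock-out libraries, and none of the 12 changed.

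Of the 41 genes, 10 fell in the knock-out and 0 rose, while 31 did not pass the test. Among all genes tested, 2.64% fell and 3.6% rose. Those that fell were the exchanger Slc7a8 and its partner chain Slc3a2, the cationic carrier Slc7a1, the facilitator Slc43a2, the neutral amino acid carrier Slc1a4, the sodium-coupled carriers Slc38a2, Slc38a5 and Slc38a11, the proton-coupled carrier Slc36a1 and the vesicular carrier Slc6a17. Of the 41 genes, 31 had a lower and 10 a higher fitted level in the knock-out, with a median log2 change of -0.39 against -0.01 over all genes tested. At an unadjusted p under 0.05 the counts were 13 lower and 2 higher, while 2668 of all 14076 genes tested passed that limit.

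The values of the 3 knock-out libraries lay wholly below those of the 3 wild-type libraries for 15 of the 41 genes and wholly above for 3. Over all genes tested, 12.8% lay wholly below and 12.8% wholly above. Within each library, the median log2 difference of the 41 genes from the wild-type mean was -0.03, 0.04 and -0.04 in wild-type 1 to 3 and -0.27, -0.40 and -0.43 in knock-out 1 to 3, so that each knock-out library was below each wild-type library. The other 195 Slc genes tested, which carry ions, sugars, monocarboxylates, nucleosides and other solutes, held 9 that rose and 14 that fell, with a median log2 change of -0.03. These counts are given side by side and the difference between the lists was not tested.

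**Figure D1:**
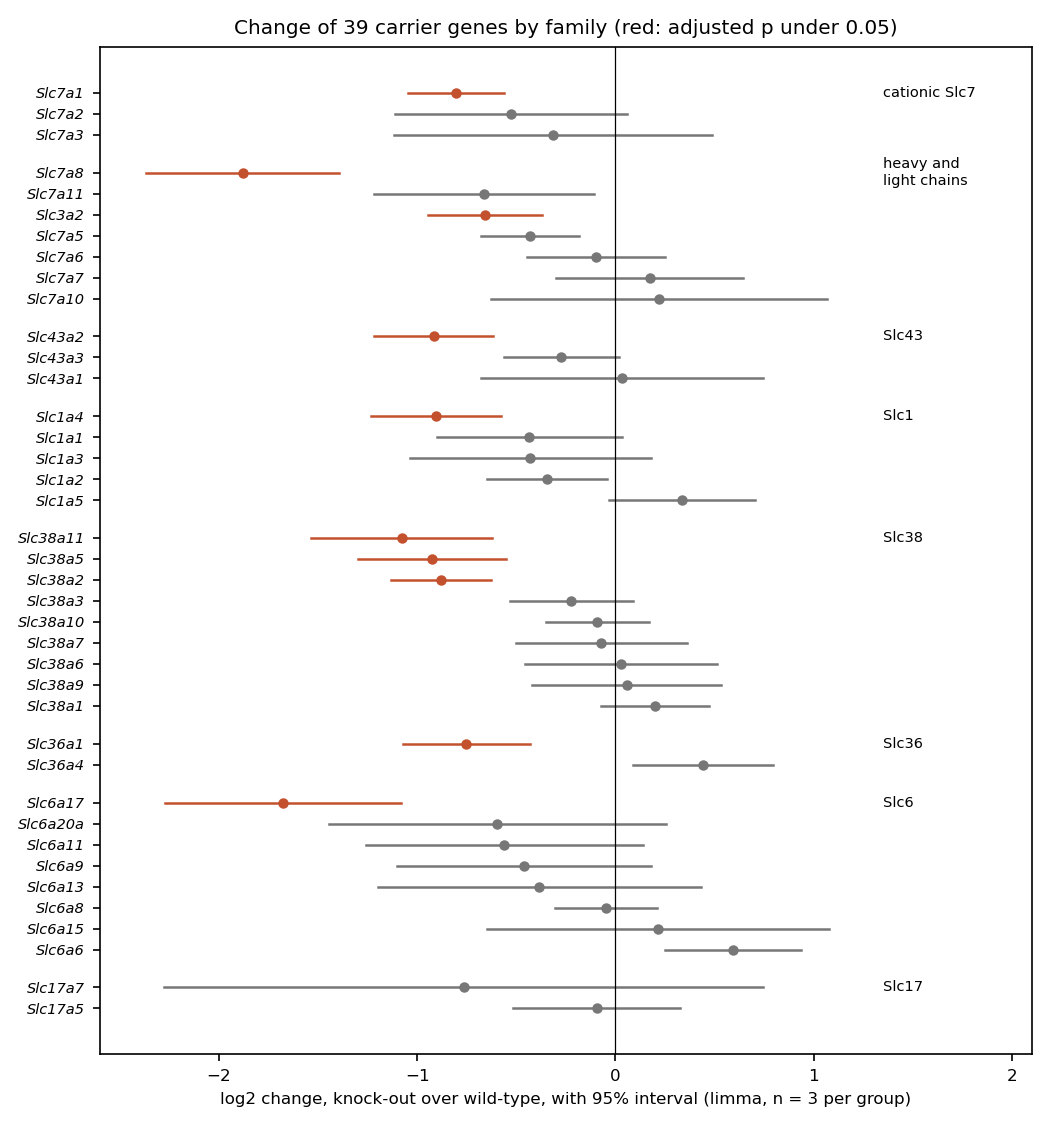
Log2 change of 39 carrier genes (x axis, knock-out over wild-type, limma, n = 3 libraries per group) with its 95% interval, ordered by family and then by change; red marks the 10 genes that fell. Slc7a8 and Slc6a17 lie farthest to the left, at -1.88 and -1.68, and Slc6a6 lies farthest to the right, at 0.59, in grey.

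The carriers differed widely in level. Per kilobase of exon, which allows levels of different genes to be compared, Slc7a5 was highest in wild-type libraries, at 5478 ± 267 normalised reads per kilobase (SD, n = 3). Slc7a1 followed at 2587 ± 105, above Slc38a2, Slc3a2 and Slc6a6, whose levels per kilobase were 1954 ± 154, 1887 ± 96.0 and 1820 ± 188. These last 3 genes overlapped one another over the wild-type libraries and are not ordered by these data. Slc38a5 at 1311 ± 47.4 and Slc1a4 at 1197 ± 108 came next and also overlapped each other.

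In the knock-out, Slc7a5 was again first per kilobase, at 4064 ± 332. Slc6a6 was at 2761 ± 469 normalised reads per kilobase, and its 3 knock-out values were above those of Slc7a1 in the same libraries. Slc7a8, which was above Slc38a10 in every wild-type library, overlapped it in the knock-out, at 96.5, 185 and 153 normalised reads per kilobase against 137, 174 and 164. Of the 12 genes with the highest level per kilobase over all 6 libraries, 7 fell, and of the other 29, 3 fell. Over all genes tested 2.64% fell, and the share among genes of similar level was not computed. The level per kilobase summed over the 40 carriers was 18618, 18511 and 19431 in wild-type 1 to 3 and 13342, 14929 and 13134 in knock-out 1 to 3, so that the groups did not overlap. The 6 genes that were highest in wild-type supplied 79.7% ± 0.858 of that sum in wild-type and 81.7% ± 0.898 in knock-out libraries.

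**Figure D2:**
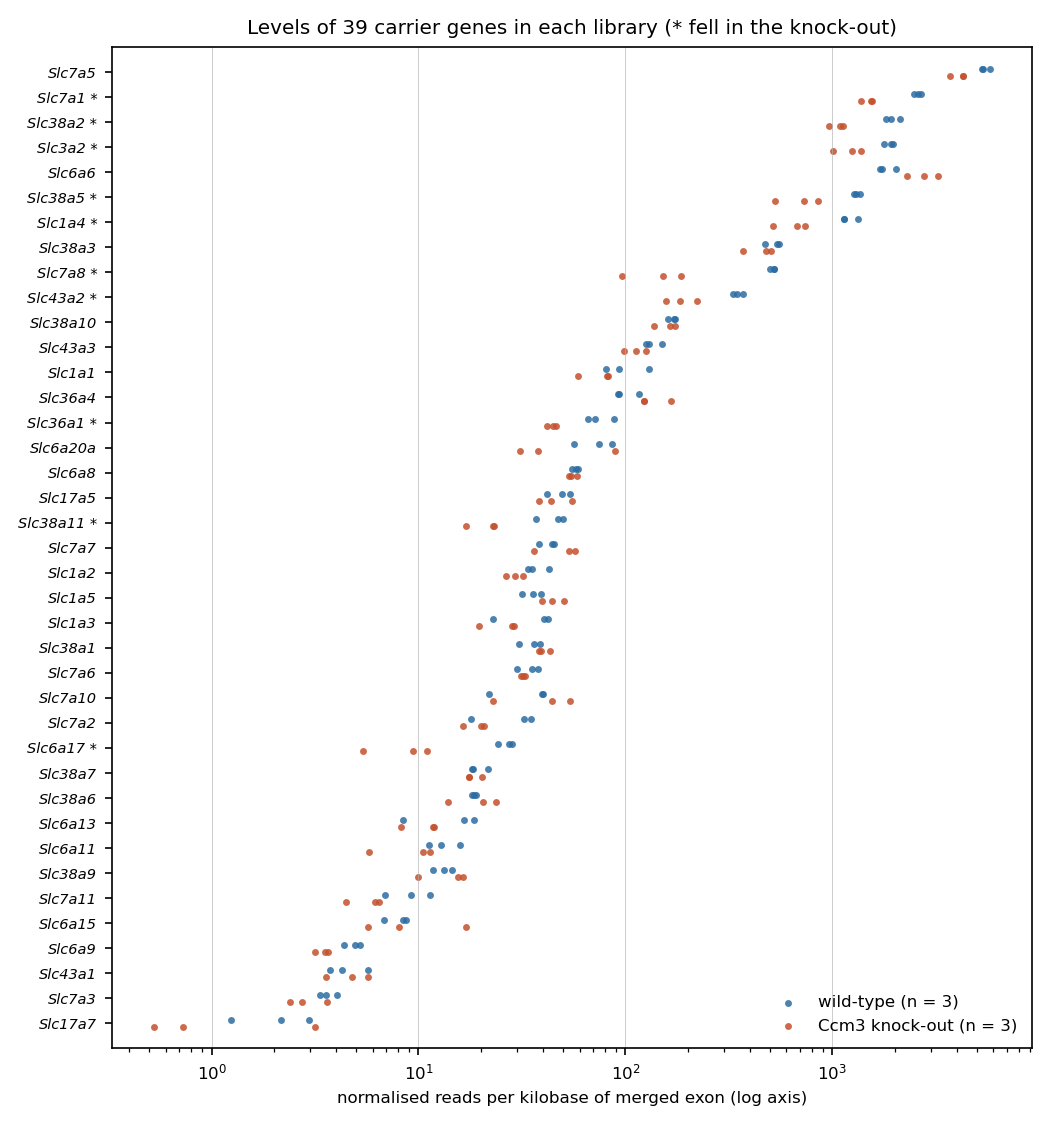
Level of 39 carrier genes in each library, in normalised reads per kilobase of merged exon (x axis, log scale), ordered by mean wild-type level. Blue points are the 3 wild-type and red points the 3 knock-out libraries, and an asterisk marks the 10 genes that fell. Slc7a5 is highest in both groups, and the red points of Slc7a8 and Slc6a17 stand clear to the left of the blue ones.

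The stretches just upstream of the transcription start are shown for 5 of the genes that fell and for Slc7a11, whose promoter holds the element of the amino acid response, to show what sequence motifs the promoters hold beside the changes described below. Letters are the 120 bases before the start on the coding strand, from RefSeq (GRCm38.p6), at chr5:148399905-148400024 (minus strand) for Slc7a1, chr11:75531574-75531693 (plus) for Slc43a2, chr11:20332714-20332833 (minus) for Slc1a4, chrX:8271261-8271380 (plus) for Slc38a5, chr11:55204220-55204339 (plus) for Slc36a1 and chr3:50443614-50443733 (minus) for Slc7a11. Capitals mark the E-box CACGTG, bound by factors such as TFEB and MYC, in Slc38a5 and Slc36a1. They also mark the ATF4 composite element TGATGNAA, read on either strand, in Slc7a11. Slc7a8, Slc38a2, Slc3a2, Slc6a17 and Slc38a11, the other genes that fell, are not shown. Neither motif stood in the 250 bases before their starts.
Slc7a1: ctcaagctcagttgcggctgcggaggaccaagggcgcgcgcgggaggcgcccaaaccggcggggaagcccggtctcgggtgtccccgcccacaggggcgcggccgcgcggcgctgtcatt
Slc43a2: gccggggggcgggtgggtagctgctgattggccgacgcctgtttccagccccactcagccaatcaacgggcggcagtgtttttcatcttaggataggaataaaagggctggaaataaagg
Slc1a4: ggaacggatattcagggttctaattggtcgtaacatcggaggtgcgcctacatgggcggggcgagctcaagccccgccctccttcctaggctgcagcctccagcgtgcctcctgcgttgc
Slc38a5: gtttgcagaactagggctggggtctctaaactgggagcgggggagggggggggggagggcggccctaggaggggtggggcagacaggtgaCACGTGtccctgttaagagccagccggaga
Slc36a1: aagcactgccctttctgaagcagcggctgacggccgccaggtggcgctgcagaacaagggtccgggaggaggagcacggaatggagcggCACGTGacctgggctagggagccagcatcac
Slc7a11: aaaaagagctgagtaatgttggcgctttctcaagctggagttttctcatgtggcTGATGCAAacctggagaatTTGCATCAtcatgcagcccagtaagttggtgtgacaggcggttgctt

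Of the 41 genes, 30 had a promoter in the RefSeq table, and the 250 bases before each start were searched on both strands. Among the 30 were all 10 genes that fell, the share to set beside the counts of fallen genes given for each motif. The E-box stood in 4 of the 30, Slc36a1, Slc38a5, Slc38a7 and Slc43a1, of which the first 2 fell. It begins 31 bases before the start of Slc36a1 and 30 bases before that of Slc38a5, and 9.65% of the 10403 tested genes with a promoter hold it, as do 6.02% of all 32841 promoters in the table. The ATF4 element stood in Slc7a11 and Slc7a7, neither of which passed the test, and in 2.38% of tested genes with a promoter. In Slc7a11 it occurs at 66 bases before the start on the coding strand and at 47 bases on the opposite strand.

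Other motifs were spread over genes that fell and genes that did not. The TCF/LEF site CTTTGAT stood in 4 of the 30, in Slc1a2, Slc38a9, Slc38a10 and a second, more internal start of Slc7a1, and in 2.77% of tested genes with a promoter. Of these, Slc7a1 fell. The cAMP response element TGACGTCA stood in Slc38a6 alone among the 30, and in 3.10% of tested genes with a promoter. The CCAAT box, which is not marked in the letters above, stood in 9 of the 30 and in 40.5% of tested genes with a promoter. Slc1a4 and Slc43a2 are among those 9. None of these matches shows that a factor binds.

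The cationic amino acid carriers were Slc7a1, Slc7a2 and Slc7a3, of which Slc7a1 fell. Slc7a1 brings arginine, lysine and ornithine into cells and is the main arginine carrier of many tissues (chromosome 5, 148327410 to 148399904 of GRCm38, minus strand). It had 29847, 28619 and 31033 normalised reads in wild-type 1 to 3 and 15863, 17631 and 17825 in knock-out 1 to 3. Each knock-out library was well below each wild-type library, and the fold was 0.57 (95% interval 0.48 to 0.68, adjusted p = 0.00481). Slc7a2 ranged from 164 to 320 normalised reads in wild-type and from 150 to 189 in knock-out libraries, with overlap. Slc7a3 was near the detection limit, at 9.08 to 15.4 normalised reads over the 6 libraries.

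The heavy chain Slc3a2 and its possible light chains made up 7 genes, of which 2 fell. Slc7a8, the light chain of a neutral amino acid exchanger also named LAT2, had the lowest fold of all 41 genes (chromosome 14, 54722209 to 54781946, minus strand). Its normalised reads were 2614, 2613 and 2495 in wild-type 1 to 3 and 483, 926 and 764 in knock-out 1 to 3. The wild-type libraries were close together, and the highest knock-out library was far below the lowest of them. The fold was 0.27 (95% interval 0.19 to 0.38, adjusted p = 0.00258).

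Slc3a2, the heavy chain that carries its light chains to the plasma membrane, lies on chromosome 19, 8706882 to 8723369, minus strand. It had 6946, 6747 and 6286 normalised reads in wild-type 1 to 3 and 3538, 4828 and 4375 in knock-out 1 to 3. No knock-out library reached the lowest wild-type library, and knock-out 1 was lowest. The fold was 0.63 (95% interval 0.52 to 0.77, adjusted p = 0.0204). This call was lost without wild-type 1 (adjusted p = 0.0866), wild-type 2 (0.101) or wild-type 3 (0.054), with a fold in the same direction each time. Over 24 alternative treatments of the data the adjusted p of Slc3a2 ran from 4.37e-05 to 0.836.

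Slc7a5, the light chain LAT1 through which leucine, tryptophan and levodopa cross the barrier, did not pass the test. Its normalised reads were 19645, 19845 and 21448 in wild-type 1 to 3 and 15782, 15778 and 13650 in knock-out 1 to 3. All knock-out libraries were below all wild-type libraries, with a fold of 0.74 (95% interval 0.62 to 0.88, adjusted p = 0.055). It passed in 7 of the 24 alternatives and in none of the 6 of them that left out a library, with adjusted p-values from 0.00091 to 0.67. Slc7a11, which exchanges cystine for glutamate, had 157, 128 and 95.7 normalised reads in wild-type 1 to 3 and 89.6, 85.5 and 62.4 in knock-out 1 to 3, with an adjusted p of 0.179. Slc7a6, Slc7a7 and Slc7a10, which exchange cationic or small neutral amino acids, overlapped between the groups.

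Because Slc7a5 and Slc7a8 share a heavy chain, their levels per kilobase were set against each other within each library. The ratio of Slc7a5 to Slc7a8 was 10.1, 10.3 and 11.6 in wild-type 1 to 3 and 44.1, 23.0 and 24.1 in knock-out 1 to 3. Each knock-out library was above each wild-type library, with knock-out 1 far above the others. The ratio of Slc7a5 to Slc3a2 was 2.91 ± 0.295 in wild-type and 3.44 ± 0.700 in knock-out libraries (SD, n = 3), and the groups overlapped. These ratios, and those given for other genes below, were chosen after the values were seen and are descriptions. An exact permutation test gave p = 0.1 for each ratio without overlap and 0.3 for Slc7a5 over Slc3a2. With 3 libraries per group that test cannot give a p under 0.1, so no conclusion is drawn from it.

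**Figure D3:**
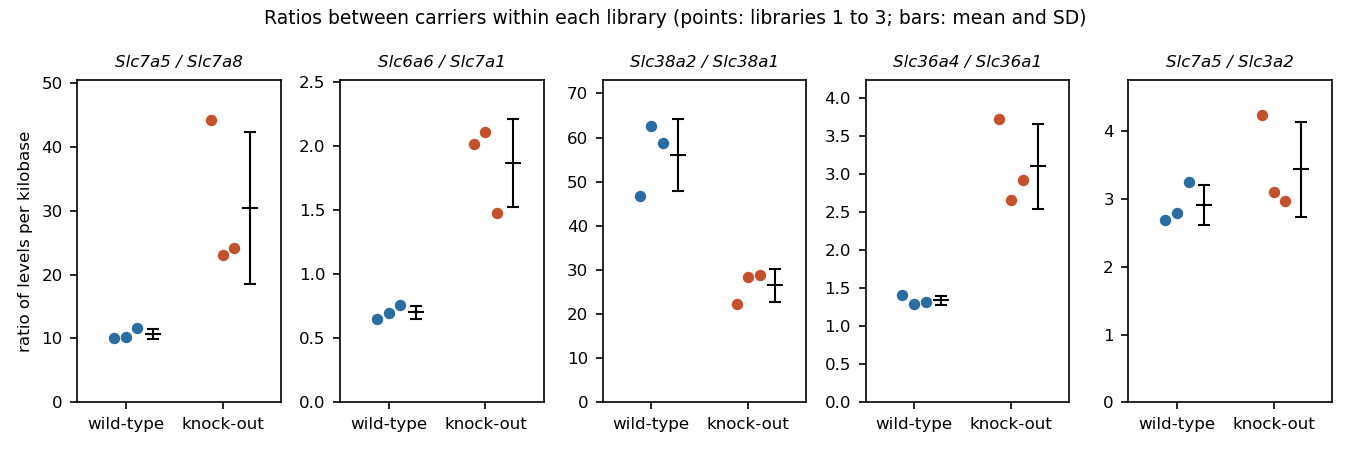
Ratios between the levels per kilobase of 5 pairs of carriers within each library (y axis, a separate scale for each pair, all from 0); points are the 3 libraries of each group and bars the mean and SD. The groups do not overlap for the first 4 pairs and overlap for Slc7a5 over Slc3a2.

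The Slc43 family held 3 genes, of which Slc43a2 fell. Slc43a2, or LAT4, lets branched-chain amino acids, phenylalanine and methionine pass down their gradient without sodium or exchange (chromosome 11, 75531694 to 75577575, plus strand). It had 3338, 3484 and 3699 normalised reads in wild-type 1 to 3 and 1569, 1837 and 2222 in knock-out 1 to 3. The groups were well apart, with a fold of 0.53 (95% interval 0.43 to 0.65, adjusted p = 0.00667). An antisense gene on the opposite strand, Gm45606, shares 922 of its 10042 exon bases. The libraries were stranded, but which strand was counted is unstated in the sources used here, so reads of the pair cannot be told apart with certainty.

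The other members of the family did not pass. Slc43a3, which carries purine nucleobases rather than amino acids, had 670, 580 and 561 normalised reads in wild-type 1 to 3 and 500, 560 and 442 in knock-out 1 to 3. The groups narrowly did not overlap, with an adjusted p of 0.301. Slc43a1 lay between 20.4 and 32.7 in all libraries.

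The Slc1 family joins glutamate carriers and neutral amino acid exchangers, and of its 5 genes tested Slc1a4 fell. Slc1a4 exchanges serine, alanine and other small neutral amino acids and is known for serine transport at the barrier (chromosome 11, 20302180 to 20332713, minus strand). Its normalised reads were 5190, 4449 and 4461 in wild-type 1 to 3 and 2035, 2651 and 2906 in knock-out 1 to 3. The groups did not overlap, with knock-out 1 lowest, and the fold was 0.53 (95% interval 0.43 to 0.67, adjusted p = 0.00958). Its close relative Slc1a5, which also takes glutamine, was at 132 to 162 normalised reads in wild-type and 166 to 210 in knock-out libraries, higher in 3 of 3 but with an adjusted p of 0.308.

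The glutamate carriers did not pass. Slc1a1, the carrier known from neurons and also described in endothelium, had 664, 769 and 1075 normalised reads in wild-type 1 to 3 and 676, 485 and 679 in knock-out 1 to 3, with overlap and an adjusted p of 0.301. Of its 8257 exon bases, 2631 are shared with 4430402I18Rik on the opposite strand. Slc1a2, best known from astrocytes, had 446, 563 and 463 in wild-type 1 to 3 and 420, 386 and 350 in knock-out 1 to 3, a set of lower values that gave an adjusted p of 0.204. Slc1a3, another astrocyte carrier, had 362, 346 and 195 in wild-type 1 to 3 and 248, 241 and 167 in knock-out 1 to 3, with overlap.

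Markers of astrocytes and Bergmann glia, of which 13 were tested and 1 fell, summed to between 10900 and 16667 in wild-type and between 9040 and 9574 in knock-out libraries, lower in the same direction as Slc1a2 and Slc1a3. In bulk libraries such as these, fewer cells of a type and less RNA per cell cannot be told apart. With the astrocyte marker level in the fit the log2 change of Slc1a3 was 0.03 instead of -0.43, and that of Slc1a2 was -0.28 instead of -0.34. With the oligodendrocyte marker level in the fit Slc1a3 passed, at a log2 change of -0.60 and an adjusted p of 0.0421, against adjusted p-values up to 0.9999 over the other alternatives.

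The Slc38 family of sodium-coupled neutral amino acid carriers had 9 genes, of which 3 fell. Slc38a2, which takes up alanine, serine and glutamine and is known to be induced when amino acids are short, lies on chromosome 15, 96687392 to 96699730, minus strand. It had 16045, 17025 and 18738 normalised reads in wild-type 1 to 3 and 8502, 9667 and 9962 in knock-out 1 to 3. Each knock-out library was below each wild-type library, and the fold was 0.54 (95% interval 0.46 to 0.65, adjusted p = 0.00373).

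Slc38a5 exchanges glutamine and other neutral amino acids with sodium against protons and is a known carrier of brain endothelium (chromosome X, 8271133 to 8280179, plus strand). Its normalised reads were 3057, 2908 and 2851 in wild-type 1 to 3 and 1189, 1915 and 1629 in knock-out 1 to 3. The groups did not overlap, knock-out 1 was lowest, and the fold was 0.53 (95% interval 0.41 to 0.68, adjusted p = 0.0151). The call was lost without wild-type 1 (adjusted p = 0.064), wild-type 2 (0.0715) or wild-type 3 (0.0504), and the adjusted p ran from 6e-06 to 0.697 over the alternatives.

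Slc38a11, a less studied member (chromosome 2, 65316430 to 65364034, minus strand), was counted at 215, 203 and 159 normalised reads in wild-type 1 to 3 and 99.95, 73.1 and 98.8 in knock-out 1 to 3. Even the lowest wild-type library, the third, was above all knock-out libraries. The fold was 0.47 (95% interval 0.35 to 0.65, adjusted p = 0.0182), and the call was lost in the fits without wild-type 1 (0.0853), without wild-type 2 (0.103) and without knock-out 2 (0.0558), with a range of 0.000157 to 0.985 over the alternatives.

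The remaining 6 genes of the family did not pass. Slc38a3, a glutamine carrier that works in both directions, had 2493, 2928 and 2853 normalised reads in wild-type 1 to 3 and 2524, 2668 and 1949 in knock-out 1 to 3, with overlap and a log2 change of -0.22 (95% interval -0.53 to 0.09). Slc38a10 had 1026 to 1116 in wild-type and 881 to 1120 in knock-out libraries. Slc38a9, which senses lysosomal arginine for mTORC1 in human cells, had 196 to 244 and 166 to 274, with a log2 change of 0.06 (95% interval -0.42 to 0.53). Slc38a1, the relative closest in substrates to Slc38a2, had 530 to 668 in wild-type and 662 to 747 in knock-out libraries.

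The ratio of Slc38a2 to Slc38a1, in levels per kilobase, was 46.9, 62.6 and 58.7 in wild-type 1 to 3 and 22.2, 28.5 and 28.8 in knock-out 1 to 3, without overlap. That of Slc38a5 to Slc38a3 was 2.53 ± 0.312 in wild-type and 1.59 ± 0.438 in knock-out libraries, also without overlap.

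The proton-coupled Slc36 family had 2 genes, whose values differed in opposite directions. Slc36a1, which exports small neutral amino acids from lysosomes, fell (chromosome 11, 55204350 to 55236330, plus strand). It had 372, 400 and 496 normalised reads in wild-type 1 to 3 and 251, 260 and 236 in knock-out 1 to 3. The knock-out libraries were close together and below all wild-type libraries, and the fold was 0.59 (95% interval 0.48 to 0.74, adjusted p = 0.0185). The call was lost in the fits without wild-type 2 (0.0835), without wild-type 3 (0.0639) and without knock-out 2 (0.0542), with a range of 0.000319 to 0.29 over the alternatives.

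Slc36a4, a high-affinity carrier of proline and tryptophan, had 610, 601 and 760 normalised reads in wild-type 1 to 3 and 1088, 803 and 801 in knock-out 1 to 3. The knock-out values were higher without overlap, but the fold of 1.36 (95% interval 1.06 to 1.74) gave an adjusted p of 0.162. The ratio of Slc36a4 to Slc36a1 in levels per kilobase was 1.34 ± 0.0608 in wild-type and 3.10 ± 0.560 in knock-out libraries, with no overlap.

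The Slc6 family of sodium- and chloride-coupled carriers had 9 genes, of which Slc6a17 fell. Slc6a17 fills vesicles of neurons with neutral amino acids, and its level here was low (chromosome 3, 107467543 to 107518018, minus strand). It had 249, 281 and 293 normalised reads in wild-type 1 to 3 and 97.1, 55.5 and 114 in knock-out 1 to 3. The highest knock-out library was below every wild-type library by more than the spread within either group. The fold was 0.31 (95% interval 0.21 to 0.47, adjusted p = 0.00902), and without wild-type 2 the adjusted p was 0.054 (range over the alternatives 1.39e-07 to 0.627).

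Of the 16 neuron markers in the table none changed, 13 were lower in the knock-out, and their median log2 change was -0.36. They summed to between 4378 and 4762 normalised reads in wild-type and to 2483, 2886 and 6941 in knock-out 1 to 3. In the same knock-out libraries Slc6a17 was at 97.1, 55.5 and 114, so that knock-out 3 was highest in both, while knock-out 1 and 2 stood in opposite order. Knock-out 3 had the highest neuron sum of all libraries, and its Slc6a17 level was below that of every wild-type library. The part of neuronal RNA in the Slc6a17 values was not tested beyond a fit with the neuron marker level, where its log2 change was -1.56 instead of -1.68 (adjusted p = 0.0203). In that fit 11 carriers fell, and the added one was Slc7a5 with an adjusted p of 0.0293.

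Slc6a6, the taurine carrier, was the only one of the 12 carriers highest per kilobase with a higher level in the knock-out (chromosome 6, 91684053 to 91759066, plus strand). It had 14311, 14646 and 17215 normalised reads in wild-type 1 to 3 and 23464, 27264 and 19334 in knock-out 1 to 3. The groups did not overlap, though knock-out 3 was close to wild-type 3. The fold was 1.51 (95% interval 1.19 to 1.91) with an adjusted p of 0.0577, so it did not pass the test. Without knock-out 3 the adjusted p was 0.0205, and over the 24 alternatives, 5 of which it passed, it ran from 0.00101 to 0.9999.

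Set against the arginine carrier, the ratio of Slc6a6 to Slc7a1 in levels per kilobase was 0.654, 0.698 and 0.756 in wild-type 1 to 3 and 2.02, 2.11 and 1.48 in knock-out 1 to 3. It was below 1 in every wild-type and above 1 in every knock-out library. Of the level per kilobase summed over 40 carriers, Slc6a6 supplied 9.64% ± 0.736 in wild-type and 19.9% ± 2.22 in knock-out libraries. Slc7a1 supplied 13.7% ± 0.272 and 10.8% ± 0.863. The share of Slc7a5 was 29.0% ± 0.666 and 29.5% ± 2.11, with overlap.

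The other Slc6 genes were less abundant and did not pass with all 6 libraries. Slc6a8, the creatine carrier, differed little between libraries, with 288, 308 and 300 normalised reads in wild-type 1 to 3 and 284, 304 and 279 in knock-out 1 to 3. Its log2 change was -0.05 (95% interval -0.31 to 0.21). The GABA carriers Slc6a11 and Slc6a13 and the proline carrier Slc6a20a overlapped between the groups, with log2 changes between -0.60 and -0.39. Slc6a20a had 364 normalised reads in knock-out 1 and 155 and 126 in knock-out 2 and 3, and without knock-out 1 it fell, at a log2 change of -1.05 and an adjusted p of 0.0334, the lowest of the 6 fits without a library, which reached 0.749. Slc6a15, a neutral amino acid carrier of neurons, had 131 in knock-out 1 and 44.4 and 62.4 in the others. Markers of choroid plexus and ependyma were also highest in knock-out 1, at a sum of 60051 against 9677 to 21678 in the other 5 libraries. Their part in these values was not tested beyond a fit with their level, in which neither Slc6a20a nor Slc6a15 passed. The glycine carrier Slc6a9 was at 22.6 to 26.7 in wild-type and 16.3 to 18.9 in knock-out libraries, an adjusted p of 0.436. It had only 16 to 38 recovered reads per library. Of its 5141 exon bases, 1429 are shared with Ccdc24 on the opposite strand.

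Of the vesicular and lysosomal carriers of the Slc17, Slc18 and Slc32 families, 2 were tested. Slc17a5, the sialic acid exporter of lysosomes, had 152 to 196 normalised reads in wild-type and 139 to 200 in knock-out libraries. Slc17a7, which fills vesicles of excitatory neurons with glutamate, was near the detection limit, with 9, 24 and 13 recovered reads in wild-type 1 to 3 and 3, 6 and 15 in knock-out 1 to 3. Of the knock-out libraries, knock-out 3 held the most, and wild-type 2 held the most of all. Slc17a6, Slc32a1 and the Slc18 genes were not analysed here.

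**Figure D4:**
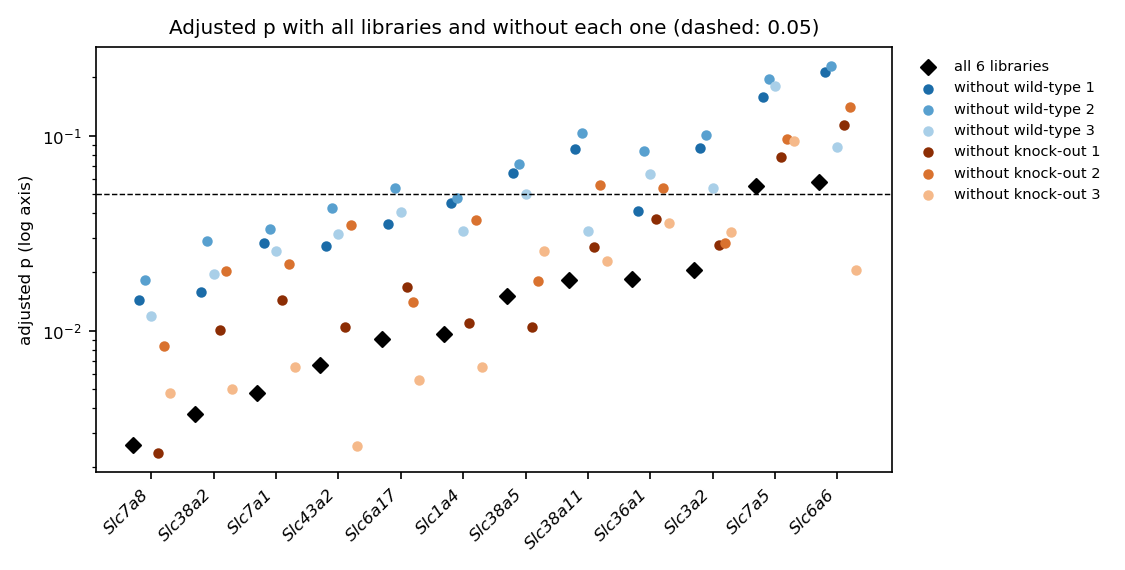
Adjusted p (y axis, log scale) of the 10 carriers that fell and of Slc7a5 and Slc6a6 with all 6 libraries (black diamonds) and with each library left out in turn (circles, coloured by the library left out); the dashed line is the limit of 0.05. Slc7a8, Slc38a2, Slc7a1, Slc43a2 and Slc1a4 stay below the line in all 6 cases, and the circles of the other 5 genes that fell cross it in at least 1.

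The count of carriers that fell varied between 5 and 11 when 1 library was left out, with the lowest count without wild-type 2. Of the 10, the 5 genes Slc7a8, Slc38a2, Slc7a1, Slc43a2 and Slc1a4 were called in each of these 6 fits. Sums of several marker lists also differed between the groups. Erythroid markers, of which 4 of 6 fell, summed to between 10013 and 19892 in wild-type and between 5462 and 6649 in knock-out libraries, without overlap. With the erythroid marker level in the fit, 0 of the 41 carriers and 0 of 14076 genes passed in limma, while 9 carriers were lower at an unadjusted p under 0.05 and 926 genes passed that limit in all. The standard errors of the 10 genes were then between 1.83 and 2.26 times as large, and their log2 changes moved in both directions. That of Slc38a11 was -0.55 instead of -1.08 and that of Slc1a4 was -0.65 instead of -0.91. That of Slc36a1 was -1.17 instead of -0.75, and Slc7a8 and Slc7a1 were at -1.93 and -0.84. Erythroid level and genotype go together in these libraries. This fit therefore cannot tell them apart, and no conclusion is drawn from it.

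Pericyte and smooth muscle markers, with 0 of 13 changed, summed to 43441 to 85265 in wild-type and 44395 to 58219 in knock-out libraries. Fibroblast markers, with 0 of 10 changed, summed to 11146 to 18746 and 7016 to 10521, without overlap. With the pericyte level in the fit 10 carriers fell, with the fibroblast level 10, and with the astrocyte level 8, where Slc38a11 (adjusted p = 0.0679) and Slc3a2 (0.0727) were lost. With the pericyte level Slc3a2 was lost (0.0583) and Slc1a1 passed (0.0466). Microglia and macrophage markers, of which 1 of 7 rose (Lyve1), summed to between 956 and 1114 in all libraries. Platelet markers, of which 1 of 3 rose (Tubb1), summed to 82.4 to 92.8 in wild-type and 111 to 320 in knock-out libraries, without overlap, and their part in the results was not tested. The oligodendrocyte sum was highest in wild-type 3, at 10839, and its part in the results above was not tested beyond a fit with its level, in which 11 carriers fell.

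Genes that act around the carriers were read from lists of the same pathways. The shares to set beside each list are those over all genes tested, of which 3.6% rose and 2.64% fell. Of 31 genes of the amino acid response, the programme that ATF4 drives when amino acids are scarce, 5 rose and 0 fell. Fitted levels were higher in the knock-out for 21 of the 31 and lower for 10, with a median log2 change of 0.22. The difference between the list and all genes was not tested. Trib3, a pseudokinase that restrains ATF4, had 5.94, 8.01 and 9.93 normalised reads in wild-type 1 to 3 and 48.1, 35.9 and 23.8 in knock-out 1 to 3 (fold 4.04, adjusted p = 0.0201). Its wild-type values were near the detection limit and all under 10, so Trib3 entered the test only through the knock-out libraries. Stc2, a secreted glycoprotein, had 40.1, 42.7 and 28.9 and then 164, 116 and 109 (fold 3.40, adjusted p = 0.00648). Atf3, a stress-induced transcription factor, had 2052, 1999 and 1565 and then 3840, 4868 and 4047 (fold 2.27, adjusted p = 0.00274). None of these 3 genes overlapped between the groups. The glycyl-tRNA synthetase Gars rose 1.36-fold. The phosphatase subunit Ppp1r15a rose 1.47-fold. The other 26 genes of the list did not pass the test.

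Of 33 genes of lysosomal amino acid sensing by mTORC1, 0 rose and 0 fell in limma, and the median log2 change was 0.04. An unadjusted p under 0.05 was reached by 3 of the 33, and by 2668 of all 14076 genes tested. Of 10 genes listed for arginine, ornithine and nitric oxide metabolism, Odc1 rose and Gatm fell. Odc1, the first enzyme of polyamine synthesis, had 1882, 2093 and 1923 normalised reads in wild-type 1 to 3 and 8496, 7196 and 5865 in knock-out 1 to 3 (fold 3.62, adjusted p = 0.00104). Gatm, which starts creatine synthesis from arginine and glycine, had 1552, 1703 and 1816 and then 1290, 1015 and 1199 (fold 0.69, adjusted p = 0.0338). Knock-out libraries were thus above all wild-type libraries for Odc1 and below all for Gatm.

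Of 17 genes for branched-chain and aromatic amino acid metabolism, 0 rose and 2 fell, with 16 lower and a median log2 change of -0.30. Ddc, which makes dopamine and serotonin from the aromatic precursors that LAT1 carries, had 399, 445 and 527 normalised reads in wild-type 1 to 3 and 124, 145 and 176 in knock-out 1 to 3 (fold 0.32, adjusted p = 0.00208). Maoa, which breaks those amines down, fell to a fold of 0.70 (adjusted p = 0.0187). Both enzymes are known from the endothelium of brain vessels.

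Of 10 genes for glutamine, glutamate and GABA metabolism, 1 fell, Aldh5a1, with a fold of 0.66 and an adjusted p of 0.0499, and 0 rose. Of 18 genes for serine, glycine, cysteine and taurine metabolism, 0 changed in limma and 2 had an unadjusted p under 0.05. Of 18 amino acid carriers of other families, 0 changed in limma, 2 had an unadjusted p under 0.05, and the median log2 change was -0.01. Over all 14076 genes tested, 2668 had an unadjusted p under 0.05.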

How the data were processed

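RNA-seq reads were handled with Trim Galore, STAR 2.5.3a (GRCm38) and DESeq2, per the submitters' processing notes, and libraries were stranded and depleted of ribosomal RNA, per the labels' protocols. The read counter, annotation and strand setting are unstated in the sources used here. Values are a normalised signal: the authors scaled the gene counts of each library by a single size factor before deposit. Whole reads were recovered for 100% of values within 0.01 of a read. A count of 3 reads corresponds to values of 1.96 to 3.41.

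Genes that reached 10 in 3 or more libraries were tested with limma 3.58.1 in R 4.3.3 on log2(value + 1), which understates changes of low genes (mean-variance trend, 2-sided, Benjamini-Hochberg over 14076 genes, limit 0.05). edgeR 4.0.16 and DESeq2 1.42.0 on recovered reads, other scalings, filters and pseudocounts, fits with marker levels and fits without each library were alternatives. The marker level in a fit was the mean log2(value + 1) over the tested markers of a list, not the sum given in the text. Positions and exon lengths are from GENCODE M21, and 14381 of 14437 identifiers matched.

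Replicate libraries differed by a chi-square of 13.9 to 57.4 per degree of freedom, so none is a copy. Same-numbered libraries of both groups deviated together with correlations of 0.10, 0.11 and 0.19, over the limit of 0.1 set for pairing, though wild-type 1 and knock-out 2 reached 0.30; the labels do not say that a number is shared. P-values measure the spread between 3 mice per group. The members and gene lists were chosen with earlier results of these data known. Named were all carriers that fell, the 12 highest per kilobase, the 5 with the next smallest p, well-known barrier, lysosome and vesicle carriers, and up to 4 called genes per pathway list; Ppp1r15a, the fifth of its list, and single values of other carriers were added after their values were seen. A single gene counted in the totals is not reported here by name or plotted.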

Additional observations from a re-analysis of the deposited data

How the results depend on the processing

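Over 24 alternatives and 23 named carriers, 500 of 551 values kept their direction and their side of the limit, 26 no longer passed, 14 newly passed and 11 changed sign. The count of carriers that rose was 1 instead of 0 (Slc6a6) with a minimum value of 50, quantile normalisation, array weights and DESeq2, and 0 to 1 when a library was left out. The count that fell was 5 to 11 when a library was left out and 0 with the erythroid marker level in the fit, and 8 to 11 in the other alternatives. The median log2 change was -0.38 to -0.25 when a library was left out, and -0.18, -0.25, -0.19 and -0.22 with the astrocyte, pericyte, erythroid and fibroblast marker levels in the fit. The choroid plexus, oligodendrocyte, erythroid and fibroblast levels were added after seeing the data. The log2 change of Slc1a3 was 0.033 and 0.21 with the astrocyte and erythroid levels. That of Slc38a10 was -0.16 to 0.010 when a library was left out. That of Slc38a9 was -0.076 to 0.28 when a library was left out, -0.038 with array weights, and -0.12, -0.068, -0.036 and -0.031 with the astrocyte, pericyte, erythroid and fibroblast levels. The causes were not tested. With the replicate block 10 carriers fell, the median was -0.39, and no call of a named carrier changed. Depth limits Slc17a7, Slc7a3, Slc43a1 and Slc6a9, which had few reads.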
